A study of Mus musculus with 12 samples.

Results

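The genes of lysosomal acidification, lysosomal enzymes and lysosomal membrane proteins were examined in HT22 cells. They were the genes whose symbol begins with Atp6v or Atp6ap, which encode the vacuolar proton pump (V-ATPase), and 27 listed lysosomal genes, with an expression of at least 0.5 FPKM in at least 3 libraries. FPKM counts the sequenced fragments of a gene per kilobase of its transcript and relative to all fragments mapped in the library. By symbol 53 genes matched, and 44 of them passed, 18 of 26 V-ATPase genes and 26 of 27 listed genes, among 11924 genes that passed of 24343 in all. The 9 that did not pass were Atp6ap1l, Atp6v0a4, the pseudogene Atp6v0c-ps2, Atp6v0d2, Atp6v1b1, Atp6v1c2, Atp6v1e2, Atp6v1g3 and Ctsf, and counts below refer to the 44.

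HT22 is an immortalized line of mouse hippocampal origin. Cells received control siRNA (siControl) or siRNA against Ncoa4 (siNCOA4), the receptor that delivers ferritin to the lysosome, and each was left at normal iron or given DFO, an iron chelator, for 24 h at 100 µM (siControl+DFO and siNCOA4+DFO). RNA-seq was carried out in 3 biological replicates per group, 12 libraries in all. All groups were the same cell line and all were transfected, so that no untransfected cells were compared.

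The V-ATPase pumps protons into the lysosome. Its cytosolic V1 sector hydrolyses ATP, its membrane V0 sector conducts the protons, and the resulting acidity activates the proteases, glycosidases and lipases that degrade cargo, ferritin included. The transcription factors TFEB, TFE3 and MITF bind a palindromic E-box known as the CLEAR element in front of many of these genes, and they are held in the cytosol by mTORC1 signalling at the lysosomal surface and released when TRPML1, encoded by Mcoln1, lets calcium out of the lysosome.

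The sequences that this family is known for were looked up first, because several members changed together. RefSeq promoter windows (GRCm38.p6), from 250 bases before to 50 bases after each annotated start, were given for 36 of the 44 members, and both strands were searched. The 8-base palindrome TCACGTGA was found in 7 of the 36 (19.4%), compared with 2.36% of 8996 expressed genes and 1.12% of 27025 genes with a window. The E-box CACGTG, which lies within that palindrome, was found in 13 members (36.1%), in 11.97% of expressed genes and in 8.09% of all genes. The palindrome extended by a G before and a C after it is the longer CLEAR-type site. It was found in 0 of the 36 members and in 0.923% of expressed genes, so the 7 members with the palindrome held its 8-base form alone. Beside so small a share, 0 of 36 does not set the members apart. The still shorter ACGTG, the core of the hypoxia response element and part of the E-box, was found in 18 members and 29.99% of expressed genes. A match describes letters in this window and not binding. The 7 palindromes are shown with 10 bases on each side, 5′ to 3′ on the strand of the gene, with the 8 bases in capitals. For Ctsa and Gla, whose windows held the palindrome at 2 places, the one farther upstream is shown.
Atp6v1a, chr16:44139374-44139401, minus strand: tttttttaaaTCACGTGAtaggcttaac
Atp6v0d1, chr8:105566051-105566078, minus strand: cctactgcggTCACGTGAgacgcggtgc
Atp6v0e, chr17:26676388-26676415, plus strand: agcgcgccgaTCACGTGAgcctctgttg
Mcoln1, chr8:3500463-3500490, plus strand: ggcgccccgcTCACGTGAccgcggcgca
Ctsd, chr7:142387909-142387936, minus strand: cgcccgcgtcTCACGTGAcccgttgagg
Ctsa, chr2:164833750-164833777, plus strand: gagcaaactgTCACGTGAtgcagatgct
Gla, chrX:134601216-134601243, minus strand: aagcgattgaTCACGTGAgcatctacgt
Counted from the start, the first base shown in capitals was at position -132 in Atp6v1a, -4 in Atp6v0d1, 3 in Atp6v0e, -46 in Mcoln1, -99 in Ctsd, -13 in Ctsa and -228 in Gla. By GENCODE M21, in which some of these genes start elsewhere, the stretches of Atp6v0e, Mcoln1, Ctsd and Ctsa overlapped an exon of their own gene, and those of Atp6v1a, Atp6v0d1 and Gla did not. That of Atp6v1a lay within the bounds of its gene but outside its exons, and those of Atp6v0d1 and Gla lay upstream of theirs. Lamp1 had no palindrome but held 4 E-boxes, at positions -61, -45, -28 and -15, of which the farthest upstream is shown with CACGTG in capitals.
Lamp1, chr8:13159090-13159115, plus strand: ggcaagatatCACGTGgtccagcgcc

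Ncoa4, the siRNA target, was at 6.46, 6.19 and 6.02 FPKM in siControl, 0.770, 0.952 and 0.891 in siNCOA4, 8.696, 8.31 and 7.52 in siControl+DFO and 0.850, 1.29 and 1.57 in siNCOA4+DFO, and the libraries with Ncoa4 siRNA were all lower than those without it. Its log2 fold change was -2.71 ± 0.21 (adjusted p = 1.25e-05) without DFO and -2.67 ± 0.21 (adjusted p = 2.83e-05) with DFO, and 16.9% of its 75-base transcript windows also occur in Gm6768. FPKM gives no read totals, but low values fell in steps, shared by 29.6 to 38.96% of low genes, and these placed the depth relative to siControl 1 at 1 to 1.25 in siControl, 1.26 to 1.41 in siNCOA4, 1.06 to 1.25 in siControl+DFO and 0.928 to 1.20 in siNCOA4+DFO. The cells are labelled neuronal, yet of 8 neuronal genes only Tubb3 and Syn1 passed the filter, and Rbfox3, Map2, Snap25, Dcx and Nefl averaged below 0.06 FPKM in every group. The 4 fibroblast genes Col1a1, Col1a2, Vim and Pdgfra summed to 2818 to 3229 FPKM in siControl, 2096 to 2253 in siNCOA4, 1799 to 1868 in siControl+DFO and 1561 to 1700 in siNCOA4+DFO. With DFO and control siRNA their log2 fold changes ran from -2.37 to -0.18. Of the 4, 3 were called lower, each by more than 2-fold, beside 25.7% of all genes called lower. The defining markers of macrophages, cells rich in lysosomes, were near 0, since the 6 genes Ptprc, Aif1, Cx3cr1, Csf1r, Adgre1 and Itgam summed to at most 0.912 FPKM in any library. The 4 astrocyte genes summed to 36.4 to 46.0 FPKM in siControl, 22.5 to 26.7 in siNCOA4, 3.18 to 5.42 in siControl+DFO and 6.95 to 15.1 in siNCOA4+DFO. Of these, Gfap and Aqp4 did not pass the filter, Slc1a3 carried the sum and changed by -3.54 ± 0.32 (adjusted p = 1.85e-06) with DFO, and Aldh1l1 changed by 0.86 ± 0.27 (adjusted p = 0.0175). The part of these markers in the results was not tested. In such bulk samples a change in the cells present and a change in the RNA per cell cannot be told apart. The authors reported changed morphology and lower viability with both treatments together, and unchanged viability with either alone. The part of this in the levels of siNCOA4+DFO was not tested.

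The limma model was fitted to log2(FPKM + 0.1), and its p-values were adjusted over all 11924 genes within each comparison by the Benjamini-Hochberg method, and a gene was called at an adjusted p below 0.05. Log2 fold changes are given ± their standard error. The summed FPKM of a library was between 565558 and 737313 and was higher in every DFO-treated library than in every other. Dividing by that sum moved the median change of all genes by more than 0.1, to 0.11 for siNCOA4 relative to siControl, -0.177 for siControl+DFO relative to siControl, -0.304 for siNCOA4+DFO relative to siNCOA4 and -0.183 for siNCOA4+DFO relative to siControl. With the values as deposited these medians lay between -0.0111 and 0.0103. The share of called genes that were higher moved with it, from 38.5 to 68.8%, from 51.8 to 37.7%, from 54.1 to 24.9% and from 52.1 to 34.6% in these 4 comparisons, and from 32 to 8.04% for the interaction. For siNCOA4+DFO relative to siControl+DFO it was 37.8%, and 50.6% with quantile scaling. Small changes given here therefore depend on the scale.

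In untreated siControl cells the V-ATPase genes differed widely in level. Atp6v1g1, a stalk subunit of V1, was highest at 157 ± 18.3 FPKM (mean ± SD, n = 3), although 12.5% of its transcript windows also occur in Gm12344 and Gm13453. It was followed by the V0 subunit genes Atp6v0b at 96.8 ± 15.6 and Atp6v0e at 77.9 ± 10.04, whose replicates overlapped. The catalytic subunit gene Atp6v1a stood at 26.4 ± 0.585 FPKM, 12th of 18, and did not differ beyond its spread from its neighbour Atp6v1d at 25.04 ± 1.46. Atp6v0e2 and Atp6v1g2 were lowest, at 2.33 ± 0.182 and 0.555 ± 0.423.

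Among the lysosomal genes in siControl, the membrane proteins Cd63 at 431 ± 77.3 FPKM and Lamp1 at 188 ± 8.17 were highest. Psap, the precursor of the saposins, Ctsl and Ctsd followed at 155 ± 4.13, 149 ± 13.7 and 138 ± 11.2, and the replicates of neighbours among these 3 overlapped. Of the regulators, Tfe3 at 13.2 ± 0.971 and Mcoln1 at 10.9 ± 0.418 FPKM were at percentiles 55.6 and 49.4 of all tested genes. Tfeb at 4.85 ± 0.361 and Mitf at 2.86 ± 0.354 FPKM were lower, at percentiles 28.8 and 20.3. Among the enzymes, the sialidase gene Neu1 was lowest at 4.53 ± 0.386.

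Most V-ATPase genes had 1 expressed isoform. Of the paired isoform genes, Atp6v1b2, Atp6v1c1, Atp6v1e1, Atp6v1g1 and Atp6v0d1 held at least 99.4% of the summed FPKM of their subunit in every group. The proton channel subunit a was shared in siControl between Atp6v0a1 at 33.98% ± 3.41, Atp6v0a2 at 32.2% ± 1.37 and Tcirg1, the a3 isoform known from osteoclasts and lysosomes, at 33.8% ± 2.53.

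**Figure D1:**
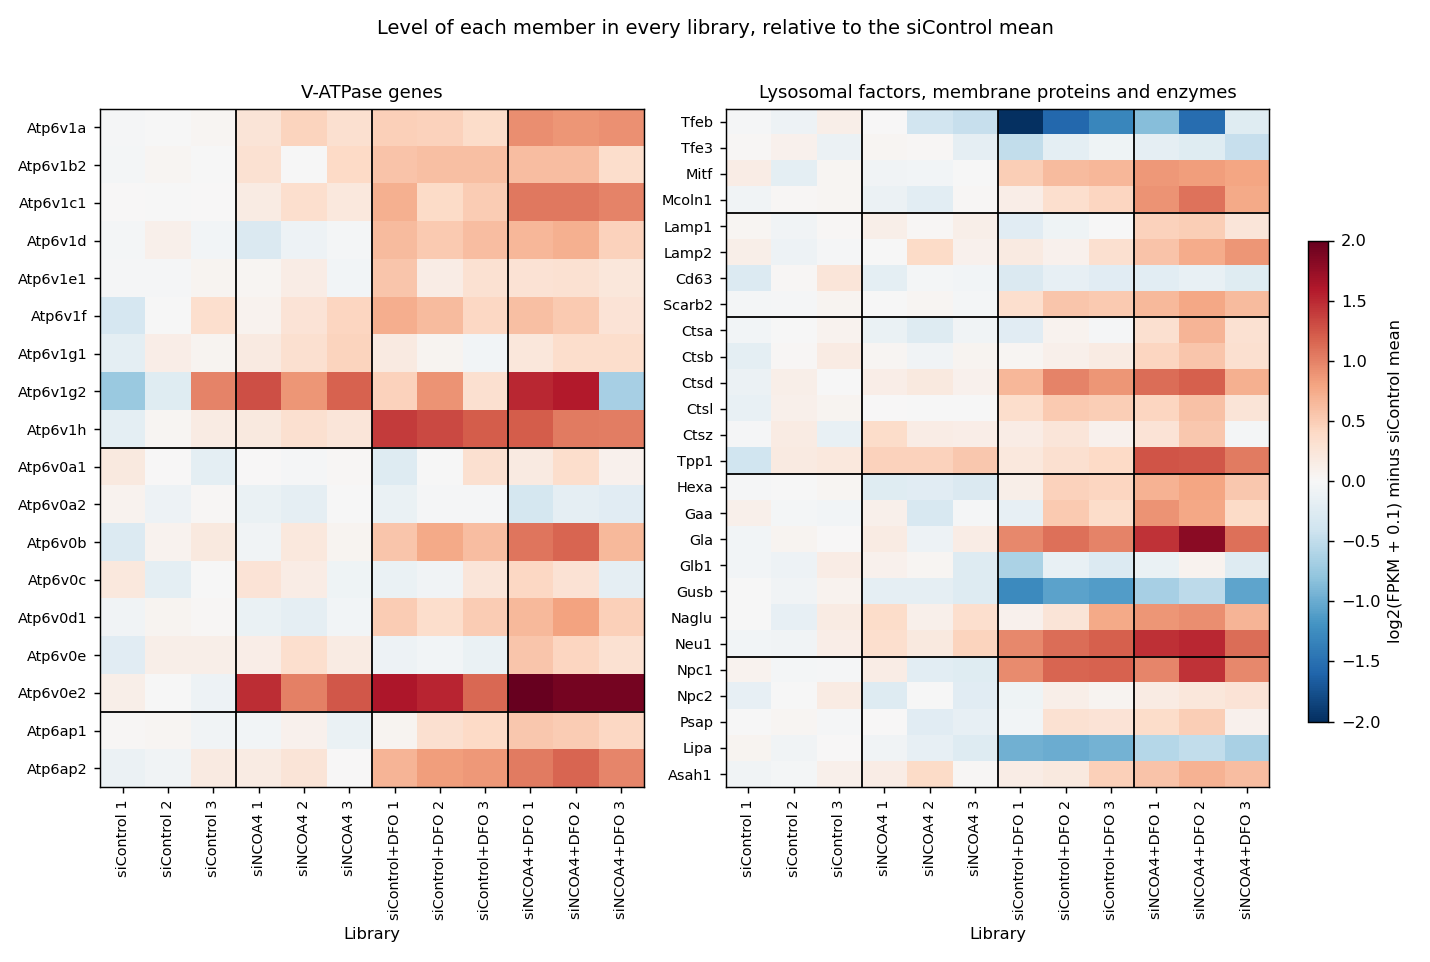
Heat maps of the 18 V-ATPase genes (left) and the 26 lysosomal genes (right) in the 12 libraries, as log2(FPKM + 0.1) minus the siControl mean of the gene. Red is higher and blue lower, colours end at 2 log2 units on either side, and lines separate groups and roles. Red covers most V-ATPase genes in both DFO-treated groups, and Tfeb, Gusb and Lipa stand out in blue.

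The first question was how iron chelation changed these genes with control siRNA. Of the 18 V-ATPase genes, 12 were higher in siControl+DFO and 0 lower, compared with 27.7% of all genes called higher and 25.7% called lower. Their median log2 fold change was 0.50, beside -0.01 for all genes. By sector, 7 of 9 V1 genes, 3 of 7 V0 genes and both accessory genes rose. With division by the FPKM sum, 10 were higher and 1, Atp6v0e, was lower, beside 2498 and 4130 of all 11924 genes. Only 2 of the 12 changed more than 2-fold, and 18.8% of all genes did so in either direction.

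Atp6v1h, the regulatory H subunit that links ATP hydrolysis to proton transport (chr1:5070018-5162529, plus strand), had the largest rise of the V1 sector. It was at 32.7, 38.4 and 41.98 FPKM in siControl, 42.9, 46.6 and 44.1 in siNCOA4, 99.1, 93.5 and 86.96 in siControl+DFO and 86.9, 76.8 and 76.2 in siNCOA4+DFO. All DFO-treated libraries lay above all others. The change with control siRNA was 1.31 ± 0.10 (adjusted p = 3.64e-07) on the log2 scale. In siNCOA4 cells the DFO response was 0.84 ± 0.10 (adjusted p = 2.45e-05). The interaction of -0.47 ± 0.14 (adjusted p = 0.0926) did not pass the threshold, and on division by the FPKM sum it was -0.60 with an adjusted p of 0.0261.

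Atp6v1a, the catalytic A subunit (chr16:44085402-44139705, minus strand), was at 25.9, 26.3 and 27.03 FPKM in siControl, 31.5, 36.05 and 33.02 in siNCOA4, 36.9, 36.3 and 34.1 in siControl+DFO and 50.6, 48.8 and 49.7 in siNCOA4+DFO. The siControl libraries lay below all others and the siNCOA4+DFO libraries above all others, without overlap. DFO changed it by 0.44 ± 0.07 (adjusted p = 0.000199) and Ncoa4 siRNA by 0.34 ± 0.07 (adjusted p = 0.00784), and both treatments together by 0.91 ± 0.07 (adjusted p = 7.36e-07). Within DFO-treated cells, Ncoa4 siRNA added 0.47 ± 0.07 (adjusted p = 0.00119).

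Atp6v1c1, the C subunit that joins V1 to V0, rose in both DFO-treated groups. It was at 52.4, 52.1 and 52.5 FPKM in siControl, 58.6, 66.2 and 60.7 in siNCOA4, 86.1, 68.2 and 74.7 in siControl+DFO and 109, 109 and 104 in siNCOA4+DFO. DFO raised it by 0.54 ± 0.08 (adjusted p = 0.00017), and Ncoa4 siRNA raised it under DFO by 0.50 ± 0.08 (adjusted p = 0.00242). Without DFO, the effect of the siRNA was 0.24 ± 0.08 (adjusted p = 0.088), although no siNCOA4 library overlapped siControl. The other V1 genes called with DFO were Atp6v1b2, Atp6v1d, Atp6v1e1 and Atp6v1f, with log2 fold changes between 0.33 and 0.59, and that of Atp6v1e1 lost its call on division by the FPKM sum. Atp6v1g1 and Atp6v1g2 were not called with DFO.

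In the V0 sector the largest change was that of Atp6v0e2, the less abundant isoform of the small e subunit (chr6:48537615-48541801, plus strand). It was at 2.52, 2.31 and 2.15 FPKM in siControl, 6.66, 4.75 and 5.64 in siNCOA4, 7.31, 6.83 and 5.27 in siControl+DFO and 9.77, 9.04 and 8.99 in siNCOA4+DFO. The siControl libraries were the lowest and the siNCOA4+DFO libraries the highest, and those of the single treatments overlapped. It rose with Ncoa4 siRNA by 1.24 ± 0.16 (adjusted p = 0.000464), with DFO by 1.43 ± 0.16 (adjusted p = 1.34e-05) and with both by 1.95 ± 0.16 (adjusted p = 1.47e-06).

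Atp6v0e, the abundant isoform, followed another course, at 66.3, 83.6 and 83.7 FPKM in siControl, 85.3, 98.1 and 86.7 in siNCOA4, 72.4, 74.9 and 70.6 in siControl+DFO and 114, 105 and 95.3 in siNCOA4+DFO. DFO alone gave -0.09 ± 0.10 (adjusted p = 0.468), and Ncoa4 siRNA under DFO gave 0.52 ± 0.10 (adjusted p = 0.00518), with every siNCOA4+DFO library above every siControl+DFO library. The share of Atp6v0e2 in the pair was 2.95% ± 0.618 in siControl, 5.99% ± 1.32 in siNCOA4, 8.16% ± 1.13 in siControl+DFO and 8.16% ± 0.401 in siNCOA4+DFO (SD, n = 3).

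Atp6v0b, the c'' proteolipid of the rotor ring, was at 79.5, 101 and 109.7 FPKM in siControl, 91.1, 111 and 99.6 in siNCOA4, 141, 163 and 148 in siControl+DFO and 202, 216 and 151 in siNCOA4+DFO. Of its exon bases, 11.8% are overlapped by a gene on the opposite strand. Every DFO-treated library lay above every untreated one, and the changes were 0.65 ± 0.15 (adjusted p = 0.00255) with control siRNA and 0.90 ± 0.15 (adjusted p = 0.000337) with Ncoa4 siRNA. Atp6v0d1, the d subunit that couples rotor and stalk, changed by 0.46 ± 0.09 (adjusted p = 0.000853) and 0.76 ± 0.09 (adjusted p = 2.58e-05) in the same comparisons. The c ring gene Atp6v0c and the channel gene Atp6v0a1 were not called in any comparison, with log2 fold changes of 0.02 and 0.02 with DFO, and 9.24% of the windows of Atp6v0c also occur in its pseudogenes.

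Of the accessory genes, Atp6ap2, the prorenin receptor that takes part in assembly of the pump, was at 34.99, 36.1 and 42.9 FPKM in siControl, 42.5, 45.4 and 38.2 in siNCOA4, 60.5, 67.8 and 69.1 in siControl+DFO and 77.6, 84.9 and 74.7 in siNCOA4+DFO. It was higher in all DFO-treated libraries, by 0.79 ± 0.10 (adjusted p = 2.58e-05) with control siRNA and 0.91 ± 0.10 (adjusted p = 1.52e-05) with Ncoa4 siRNA. Atp6ap1, the other accessory subunit, changed by 0.25 ± 0.09 (adjusted p = 0.0339) and 0.52 ± 0.09 (adjusted p = 0.000641). On division by the FPKM sum the first of these calls was lost. In the second comparison that division took the V-ATPase genes called higher from 10 to 7, so its weaker calls, that of Atp6ap1 included, depend on the scale.

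The make-up of the a subunit shifted towards Tcirg1, which was at 18.8, 19.2 and 20.3 FPKM in siControl, 23.9, 22.6 and 31.1 in siNCOA4, 33.3, 34.4 and 34.3 in siControl+DFO and 45.2, 48.8 and 33.95 in siNCOA4+DFO. It rose by 0.80 ± 0.14 (adjusted p = 0.000359) with DFO and by 1.12 ± 0.14 (adjusted p = 3.24e-05) with both treatments, and its change with Ncoa4 siRNA alone was 0.40 ± 0.14 (adjusted p = 0.084). Its share of the summed a subunit FPKM was 33.8% ± 2.53 in siControl, 41.04% ± 3.33 in siNCOA4, 47.4% ± 2.79 in siControl+DFO and 52.6% ± 3.85 in siNCOA4+DFO. Atp6v0a2, the Golgi isoform, was the 1 V-ATPase gene that was lower in siNCOA4+DFO than in siControl, by -0.26 ± 0.09 (adjusted p = 0.0265).

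**Figure D2:**
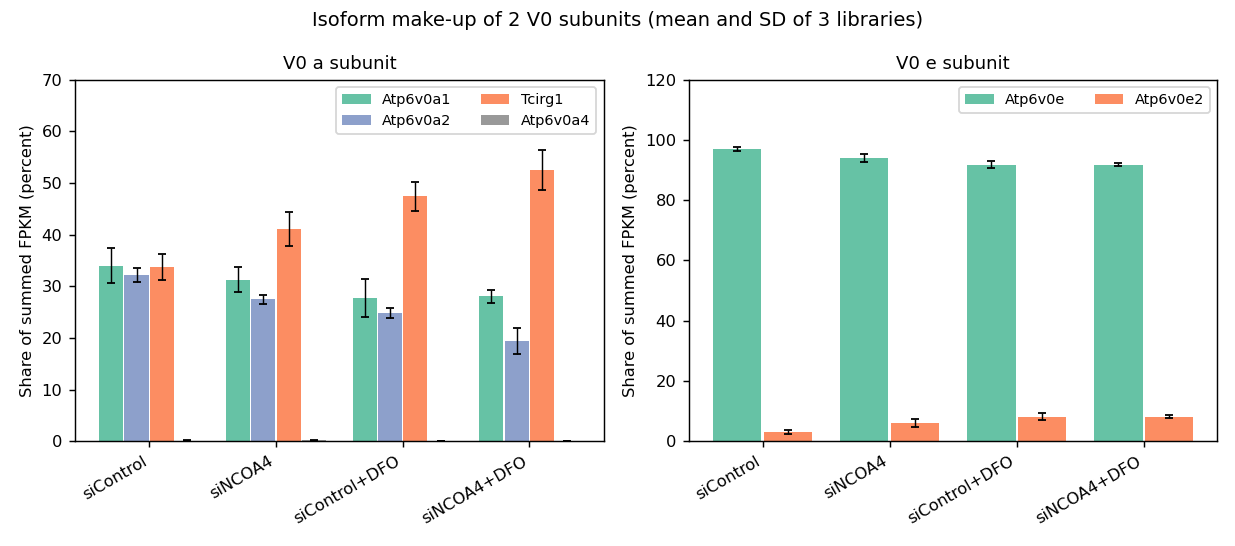
Share of each isoform gene in the summed FPKM of the V0 a subunit (left) and the V0 e subunit (right), in percent, as the mean and SD of 3 libraries per group. Tcirg1 goes from 33.8% in siControl to 52.6% in siNCOA4+DFO, and Atp6v0e2 from 2.95% to 8.16%.

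Silencing of Ncoa4 at normal iron changed few V-ATPase genes. Atp6v1a and Atp6v0e2 were the 2 of 18 called higher, with 0 called lower, and 4.52% of all genes were called higher and 7.21% lower. On division by the FPKM sum there were 5, all higher, beside 1054 of all 11924 genes called higher and 478 lower. In siNCOA4 cells, DFO raised 10 of the 18 and lowered 0, compared with 23.1% and 19.6% of all genes. None of the 10 changed more than 2-fold, as did 11.4% of all genes. Division by the FPKM sum left 7 higher and 2 lower there, Atp6v0a2 and Atp6v1g1, beside 1574 and 4736 of all genes. With it, Atp6v1b2 was among those no longer called higher, and went from 0.30 to -0.0080 (adjusted p = 0.962). All 10 were among the 12 that rose with control siRNA, and the other two were Atp6v1e1 and Atp6v1f.

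Under DFO, Ncoa4 siRNA raised 4 of the 18 V-ATPase genes, Atp6v1a, Atp6v1c1, Atp6v0e and Atp6v0e2, and lowered 0, beside 6.22% of all genes higher and 10.2% lower. The 2 treatments together, compared with siControl, raised 14 and lowered 1, beside 25.4% and 23.4% of all genes. Of these, 4 rose more than 2-fold, Atp6v1c1, Atp6v1h, Atp6v0e2 and Atp6ap2, beside 15.2% of all genes changed by that much in either direction. No V-ATPase gene passed the test of the interaction, in which 0.671% of all genes were called higher and 1.43% lower. An unadjusted p below 0.05 was found for 4 of the 18 and for 2167 of all 11924 genes, which are similar shares.

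Of the 26 lysosomal genes, 9 were higher and 3 lower in siControl+DFO than in siControl, against the same 27.7% and 25.7% of all genes. The share of these genes called higher was thus 34.6%, and their median log2 fold change was 0.22. The direction depended on the scale. Division by the FPKM sum gave 7 higher and 7 lower, with Tfe3, Lamp1, Cd63 and Glb1 added to those that fell. Of all 11924 genes, 2498 were then called higher and 4130 lower. Quantile scaling gave 7 and 5, beside 2865 and 3433 of all genes. More than 2-fold changes were seen in Gla, Neu1 and Npc1, which rose, and in Tfeb and Gusb, which fell. Of all genes, 18.8% changed by that much in either direction, a share near that of the lysosomal genes.

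The MiT/TFE factors were examined first. Tfeb, regarded as the main activator of lysosomal genes (chr17:47737030-47792419, plus strand), was at 4.78, 4.53 and 5.24 FPKM in siControl, 4.84, 3.697 and 3.5 in siNCOA4, 0.987, 1.56 and 1.91 in siControl+DFO and 2.63, 1.62 and 4.06 in siNCOA4+DFO. It was lower in every DFO-treated siControl library than in every untreated one, by -1.69 ± 0.31 (adjusted p = 0.000597). In siNCOA4 cells the DFO-treated libraries spread widely and overlapped with the untreated ones, with a change of -0.60 ± 0.31 (adjusted p = 0.14). The difference between these responses, 1.09 ± 0.44 (adjusted p = 0.208), had a 95% interval from 0.14 to 2.04 and did not pass the threshold.

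Mitf, the related melanocyte factor, went the other way. It was at 3.17, 2.47 and 2.94 FPKM in siControl, 2.7, 2.73 and 2.83 in siNCOA4, 4.06, 4.47 and 4.57 in siControl+DFO and 5.27, 5.16 and 4.97 in siNCOA4+DFO, and all DFO-treated libraries lay above the untreated ones, with changes of 0.60 ± 0.14 (adjusted p = 0.00376) and 0.87 ± 0.14 (adjusted p = 0.000382) in the 2 siRNA backgrounds. Tfe3 was not called in any comparison, with -0.26 ± 0.13 (adjusted p = 0.0999) for DFO.

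Mcoln1, the calcium and iron channel TRPML1 (chr8:3500457-3515232, plus strand), was at 10.4, 11.1 and 11.1 FPKM in siControl, 9.96, 9.33 and 11 in siNCOA4, 11.96, 13.7 and 14.7 in siControl+DFO and 20.3, 23.2 and 18.4 in siNCOA4+DFO. The siNCOA4+DFO libraries were above all others. DFO changed it by 0.30 ± 0.11 (adjusted p = 0.0398) with control siRNA, a call that was lost in 12 of the 24 alternative settings, and by 1.02 ± 0.11 (adjusted p = 1.93e-05) with Ncoa4 siRNA.

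**Figure D3:**
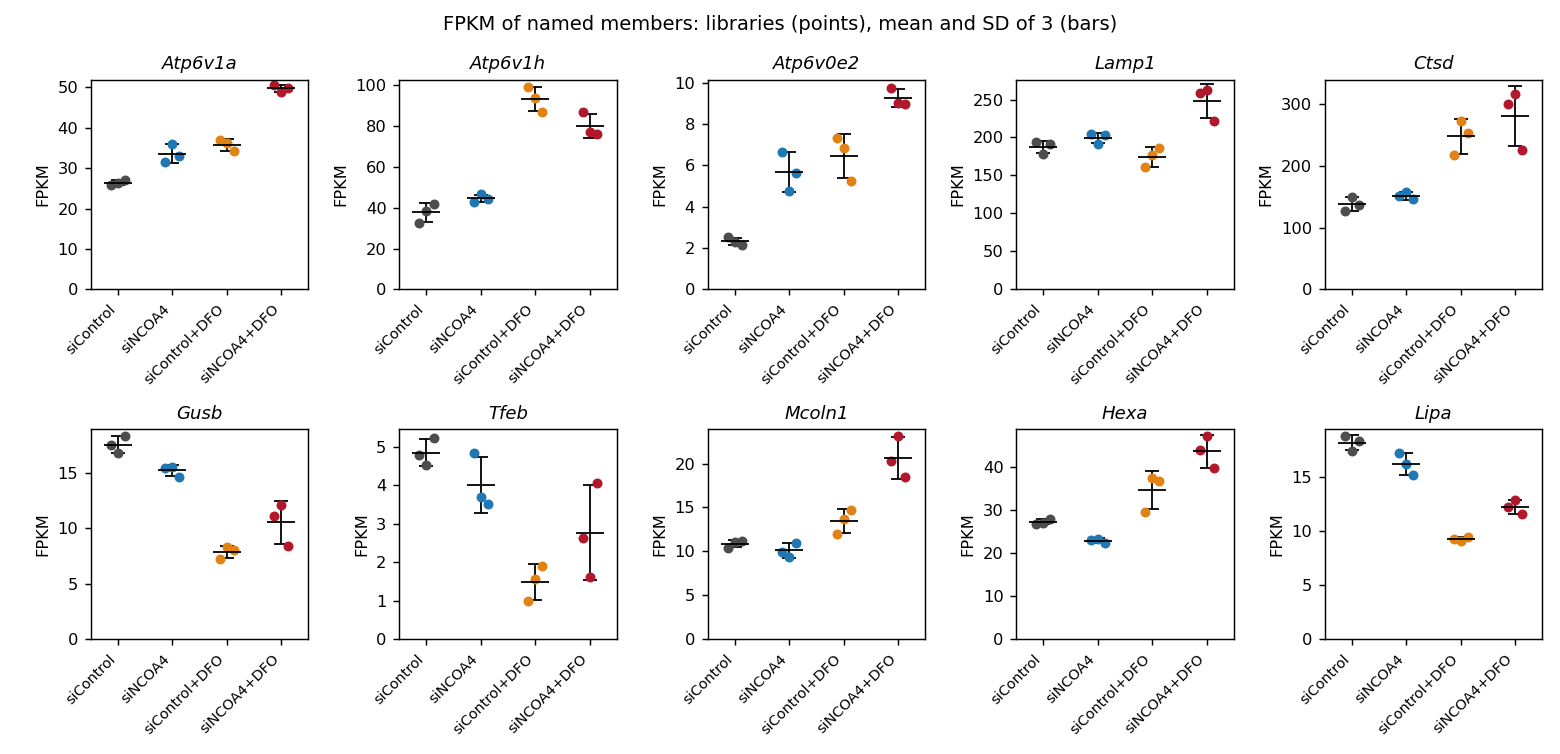
FPKM of 10 named members in each library (points), with the mean and SD of 3 libraries (bars), on axes that start at 0. Atp6v1a is highest in siNCOA4+DFO, Atp6v1h is raised in both DFO-treated groups, and Tfeb, Gusb and Lipa are lowest in siControl+DFO.

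Of the membrane proteins, Lamp1 (chr8:13159161-13175338, plus strand), the most abundant glycoprotein of the lysosomal membrane, was at 193, 178 and 191 FPKM in siControl, 204, 192 and 203 in siNCOA4, 161, 176 and 187 in siControl+DFO and 259, 263 and 222 in siNCOA4+DFO. DFO with control siRNA gave -0.11 ± 0.08 (adjusted p = 0.31), and DFO with Ncoa4 siRNA 0.31 ± 0.08 (adjusted p = 0.0107). The second of these calls was lost on division by the FPKM sum (adjusted p = 0.979). Every siNCOA4+DFO library was above every other, and the effect of the siRNA under DFO was 0.50 ± 0.08 (adjusted p = 0.00242).

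Lamp2, needed for fusion of autophagosomes with lysosomes, was likewise highest in siNCOA4+DFO, at 46.1, 39.2 and 41.8 FPKM in siControl, 41.9, 54.9 and 44.7 in siNCOA4, 48.1, 45.1 and 52.97 in siControl+DFO and 62.7, 70.7 and 78.1 in siNCOA4+DFO. Its change with DFO was 0.20 ± 0.11 (adjusted p = 0.16) with control siRNA and 0.58 ± 0.11 (adjusted p = 0.00145) with Ncoa4 siRNA, and the siRNA added 0.53 ± 0.11 (adjusted p = 0.00899) under DFO. Scarb2, the carrier of glucocerebrosidase, rose in both backgrounds, by 0.48 ± 0.08 (adjusted p = 0.000196) and 0.69 ± 0.08 (adjusted p = 1.73e-05). Cd63, a tetraspanin shared with exosomes, was not called in any comparison.

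Among the proteases, Ctsd, the aspartic protease cathepsin D (chr7:142375911-142388038, minus strand), was at 127, 149 and 138 FPKM in siControl, 151, 157 and 146 in siNCOA4, 218, 274 and 253 in siControl+DFO and 300.2, 317 and 225 in siNCOA4+DFO. It was higher in every DFO-treated library than in every untreated one, by 0.84 ± 0.13 (adjusted p = 0.000121) and 0.88 ± 0.13 (adjusted p = 0.000144). A share of 31.3% of its transcript windows also occurs in Gm49369, an annotated gene on the same strand, so that its level is uncertain. Ctsl, cathepsin L, rose by 0.46 ± 0.09 (adjusted p = 0.00136) and 0.42 ± 0.09 (adjusted p = 0.00298), and 26.8% of its exon bases are overlapped by genes on the opposite strand.

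Tpp1, a peptidase lost in a neuronal ceroid lipofuscinosis, was higher with the siRNA. It was at 12.5, 18.5 and 19.1 FPKM in siControl, 22.6, 22.7 and 23.8 in siNCOA4, 19.05, 20.5 and 21.6 in siControl+DFO and 39.3, 39.1 and 33.7 in siNCOA4+DFO. The siNCOA4 libraries lay above siControl and the siNCOA4+DFO libraries above all others. Ncoa4 siRNA changed it by 0.49 ± 0.14 (adjusted p = 0.0418) at normal iron and by 0.87 ± 0.14 (adjusted p = 0.00197) under DFO, and both treatments by 1.18 ± 0.14 (adjusted p = 2.31e-05). It was the only 1 of the 26 lysosomal genes called with Ncoa4 siRNA alone, and the call was lost on leaving out any of 9 of the 12 libraries, all but siControl 2, siControl 3 and siNCOA4+DFO 3, with an adjusted p of up to 0.117.

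The cathepsins Ctsa and Ctsb changed with DFO in siNCOA4 cells. Ctsa, which also protects the sialidase, was at 23.9, 24.5 and 25.9 FPKM in siControl, 22.5, 20.8 and 23.6 in siNCOA4, 21.3, 26.1 and 24.3 in siControl+DFO and 30.8, 39.7 and 30.7 in siNCOA4+DFO, and Ctsb at 23.8, 27.9 and 30.8 FPKM in siControl, 28, 25.9 and 28.3 in siNCOA4, 28.2, 29.2 and 30.7 in siControl+DFO and 36.99, 40.1 and 33.98 in siNCOA4+DFO. For Ctsa the response to DFO was -0.06 ± 0.11 (adjusted p = 0.69) with control siRNA and 0.59 ± 0.11 (adjusted p = 0.00107) with Ncoa4 siRNA, and the interaction was 0.65 ± 0.16 (adjusted p = 0.0576). For Ctsb these responses were 0.10 ± 0.10 (adjusted p = 0.402) and 0.43 ± 0.10 (adjusted p = 0.00383). Both were higher with Ncoa4 siRNA under DFO, by 0.49 and 0.33. Of the exon bases of Ctsa and Ctsb, 17.4% and 12.8% are overlapped by genes on the opposite strand. Ctsz was not called in any comparison.

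Among the glycosidases, Gla and Neu1 rose and Gusb fell with DFO. Gla, the enzyme deficient in Fabry disease, was at 6, 6.496 and 6.29 FPKM in siControl, 7.01, 5.83 and 6.98 in siNCOA4, 12.3, 13.5 and 12.5 in siControl+DFO and 17.1, 22.1 and 13.5 in siNCOA4+DFO, and every DFO-treated library was at least at 12.3. It rose by 1.02 ± 0.15 (adjusted p = 0.000145) and 1.38 ± 0.15 (adjusted p = 2.24e-05). Neu1, the lysosomal sialidase, was at 4.32, 4.29 and 4.97 FPKM in siControl, 5.74, 5.17 and 6.19 in siNCOA4, 8.9, 9.896 and 10.4 in siControl+DFO and 12.6, 12.99 and 9.88 in siNCOA4+DFO, and rose by 1.09 ± 0.14 (adjusted p = 2.9e-05) and 1.03 ± 0.14 (adjusted p = 7.21e-05).

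Gusb, beta-glucuronidase, was at 17.5, 16.8 and 18.4 FPKM in siControl, 15.5, 15.6 and 14.7 in siNCOA4, 7.21, 8.28 and 8.05 in siControl+DFO and 11.1, 12.1 and 8.39 in siNCOA4+DFO, and the siControl+DFO libraries were below all others. The changes were -1.15 ± 0.13 (adjusted p = 9.94e-06) with control siRNA and -0.54 ± 0.13 (adjusted p = 0.00413) with Ncoa4 siRNA, and under DFO the siRNA gave 0.41 ± 0.13 (adjusted p = 0.0459).

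Hexa, the alpha chain of beta-hexosaminidase (chr9:59539540-59565109, plus strand), was at 26.8, 27.1 and 27.96 FPKM in siControl, 23.1, 23.3 and 22.3 in siNCOA4, 29.6, 37.5 and 36.7 in siControl+DFO and 44.01, 47.2 and 39.6 in siNCOA4+DFO. Its siNCOA4 libraries were below siControl and its siNCOA4+DFO libraries above all others. The DFO response was 0.33 ± 0.10 (adjusted p = 0.0111) with control siRNA and 0.92 ± 0.10 (adjusted p = 1.26e-05) with Ncoa4 siRNA, and under DFO the siRNA gave 0.34 ± 0.10 (adjusted p = 0.033). Its first call was lost on division by the FPKM sum, and 12.8% of its exon bases are overlapped by a gene on the opposite strand. Gaa and Naglu were called with DFO in siNCOA4 cells alone, by 0.77 and 0.57, with interactions of 0.52 ± 0.25 (adjusted p = 0.294) and 0.20 ± 0.24 (adjusted p = 0.704). Glb1 was not called in any comparison.

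The genes of lipid handling were also divided. Npc1, the cholesterol exporter, was at 6.58, 6.07 and 6.12 FPKM in siControl, 6.96, 5.37 and 5.26 in siNCOA4, 12.1, 14.2 and 14.4 in siControl+DFO and 12.4, 17.2 and 12.2 in siNCOA4+DFO, with no overlap between DFO-treated and untreated libraries. It rose by 1.10 ± 0.15 (adjusted p = 7.4e-05) and 1.23 ± 0.15 (adjusted p = 4.87e-05). Its partner Npc2, the soluble carrier, gave 0.03 ± 0.11 (adjusted p = 0.848) and 0.39 ± 0.11 (adjusted p = 0.00981).

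Lipa, the acid lipase (chr19:34492318-34527474, minus strand), was at 18.9, 17.4 and 18.4 FPKM in siControl, 17.3, 16.2 and 15.2 in siNCOA4, 9.28, 9.09 and 9.44 in siControl+DFO and 12.3, 12.9 and 11.6 in siNCOA4+DFO. The 3 siControl+DFO libraries lay closely together and below all others. It fell with DFO, by -0.97 ± 0.09 (adjusted p = 1.66e-06) with control siRNA and by -0.40 ± 0.09 (adjusted p = 0.00241) with Ncoa4 siRNA, and under DFO the siRNA gave 0.40 ± 0.09 (adjusted p = 0.00813). Asah1, acid ceramidase, was at 29.6, 30.04 and 33.4 FPKM in siControl, 34.5, 40.4 and 31.5 in siNCOA4, 34.4, 35.4 and 43.1 in siControl+DFO and 45.9, 50.3 and 47.6 in siNCOA4+DFO. It changed by 0.27 ± 0.11 (adjusted p = 0.0506) with DFO, by 0.44 ± 0.11 (adjusted p = 0.00594) with DFO in siNCOA4 cells and by 0.35 ± 0.11 (adjusted p = 0.0437) with Ncoa4 siRNA under DFO. Psap was called with DFO in siNCOA4 cells, by 0.45.

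The second question was whether DFO acted alike with and without Ncoa4. In siNCOA4 cells, DFO raised 19 of the 26 lysosomal genes and lowered 2, Gusb and Lipa, compared with 23.1% and 19.6% of all genes. Their median log2 fold change was 0.51. Changes above 2-fold were seen in 4, Gla, Neu1, Npc1 and Mcoln1, beside 11.4% of all genes. Division by the FPKM sum left 9 higher and 5 lower, beside 1574 and 4736 of all 11924 genes. With it, Lamp1, Lamp2, Ctsa, Ctsb, Ctsl, Gaa, Naglu, Npc2, Psap and Asah1 lost their calls. Tfeb, Tfe3 and Cd63 joined the lower. Of the genes called here, 10 lysosomal genes and 0 V-ATPase genes were not called with control siRNA, but a call in 1 background alone does not show a difference between backgrounds.

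The 2 DFO comparisons share no library, and their changes were set side by side for the 44 members. They had the same sign in 39 (88.6%), beside 82.4% of all genes, and 21 (47.7%) were called in both, beside 35.4% of all genes. All 21 had the same sign in both, as had 99.5% of all genes called in both. Pearson's r across the 26 lysosomal genes was 0.91 and Spearman's rho 0.88, and across the 18 V-ATPase genes they were 0.61 and 0.65. These describe genes of the same libraries, which are not independent replicates. The log2 fold change was greater with Ncoa4 siRNA in 23 of the 26 lysosomal genes and in 10 of the 18 V-ATPase genes, beside 49.3% of all genes. Greater means here a larger rise, a smaller fall or a rise in place of a fall. The V-ATPase share of 55.6% was near that of all genes. On division by the FPKM sum the numbers were 19 of 26 and 7 of 18, with a median interaction of -0.139 over all genes.

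**Figure D4:**
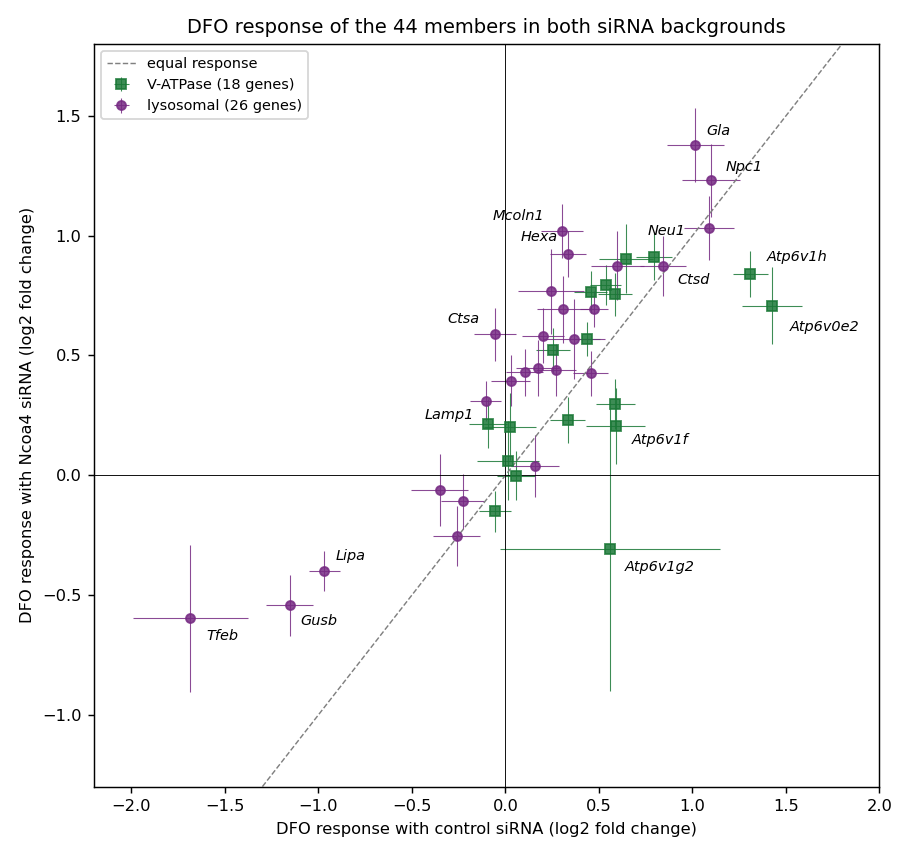
Log2 fold change with DFO in cells with control siRNA (horizontal axis) and with Ncoa4 siRNA (vertical axis) for the 44 members. Bars are standard errors and the dashed line marks equal responses. Of the lysosomal genes (circles), 23 of 26 lie above the line, and Atp6v1h, Atp6v0e2, Atp6v1f and Atp6v1g2 are among the V-ATPase genes (squares) below it.

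The effect of Ncoa4 siRNA in DFO-treated cells came from libraries that also enter both DFO responses and their difference. It is therefore not separate evidence on that difference. Of the 26 lysosomal genes, 10 were higher and 0 lower, beside 6.22% and 10.2% of all genes, and the median was 0.33. They were Mcoln1, Lamp1, Lamp2, Ctsa, Ctsb, Tpp1, Hexa, Gusb, Lipa and Asah1. At normal iron the siRNA gave 1 higher and 0 lower, beside 4.52% and 7.21%, with a median of -0.04. Under DFO the number fell to 6 on division by the FPKM sum, beside 580 of all genes higher and 1288 lower. It also fell to 6 without siControl+DFO 1 or without siNCOA4+DFO 1. The 15 hydrolase genes among the members, without the lipid carriers and Psap, gave 7 higher and 0 lower.

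The interaction tested the difference of the DFO responses itself. Mcoln1 with 0.72 ± 0.16 (adjusted p = 0.0408), Hexa with 0.59 ± 0.14 (adjusted p = 0.047) and Lipa with 0.57 ± 0.12 (adjusted p = 0.0358) were called, all higher, beside 0.671% of all genes higher and 1.43% lower. The 95% intervals ran from 0.37 to 1.07, from 0.29 to 0.89 and from 0.31 to 0.83. In Mcoln1 and Hexa a rise was larger with Ncoa4 siRNA, and in Lipa a fall was smaller. None of the 3 kept its call on division by the FPKM sum, where the median interaction of all genes was -0.139. Leaving out 1 library at a time ended the call of Mcoln1 in 10 of 12 cases, of Hexa in 11 and of Lipa in 10, and without siNCOA4+DFO 3 there were 5 called genes.

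Compared with siControl, siNCOA4+DFO had 18 of the 26 lysosomal genes higher and 3 lower, beside 25.4% and 23.4% of all genes. The 3 were Tfeb, Gusb and Lipa. Division by the FPKM sum left 13 higher and 5 lower, with Tfe3 and Cd63 added to the lower, beside 2143 and 4049 of all genes. A rise of more than 2-fold was seen in 5, Gla, Neu1, Tpp1, Npc1 and Ctsd, beside 15.2% of all genes. The largest was that of Gla, 1.45 ± 0.15 (adjusted p = 1.04e-05).

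The palindromes shown above were set beside these calls as a description. Of the 7 members with TCACGTGA, 5 rose with DFO and control siRNA, 6 with DFO and Ncoa4 siRNA, 4 with Ncoa4 siRNA under DFO, and 7 with both treatments relative to siControl. Of the 29 members with a window and no palindrome, 12, 17, 7 and 18 rose in these comparisons, and 3, 2, 0 and 3 fell. Beyond the members, 205 tested genes held the palindrome, and 34.1%, 34.6%, 10.2% and 36.6% of them rose, compared with 28.2%, 23.1%, 5.94% and 25.4% of the 8784 tested genes without it. Medians over the 205 were 0.10, 0.16, 0.02 and 0.14. Hexa and Lipa, which were called in the interaction, had no ACGTG in their windows, and Mcoln1 had the palindrome.

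Other genes of the pathway were given from lists. The hydrolase list held 32 further lysosomal hydrolases and related genes, of which 27 were tested. Of these, 6 rose and 3 fell with DFO and control siRNA, beside 27.7% and 25.7% of all genes. With Ncoa4 siRNA under DFO 6 rose and 0 fell, beside 6.22% and 10.2%. Manba, beta-mannosidase, is counted among the first 6 but passed the filter only through the DFO-treated libraries, with 0, 0.0738 and 0 FPKM in siControl, 0.0708, 0.367 and 0.263 in siNCOA4, 0.786, 1.19 and 0.630 in siControl+DFO and 0.834, 1.08 and 0.599 in siNCOA4+DFO, so that no fold change is given for it. Man2b1, alpha-mannosidase, rose by 0.53, and Hgsnat, an acetyltransferase of heparan sulphate breakdown, fell by 0.64.

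Of 22 further membrane and sorting genes tested, of 23 listed, 6 rose and 4 fell with DFO and control siRNA, near the 27.7% and 25.7% of all genes. Clcn7, the chloride and proton exchanger of the lysosome, rose from 11.8, 12.8 and 13.6 to 23.7, 30.1 and 23.8 FPKM, by 1.01 ± 0.13 (adjusted p = 4.2e-05). The genes of the mannose 6-phosphate route, which sorts hydrolases to the lysosome, were divided. Igf2r, a receptor of this route, was at 7.85, 7.03 and 8.61 FPKM in siControl, 15.4, 13.1 and 14.2 in siNCOA4, 1.96, 2.47 and 2.09 in siControl+DFO and 4.35, 3.15 and 5.24 in siNCOA4+DFO, with -1.80 ± 0.18 (adjusted p = 4.42e-06) for DFO, 0.85 ± 0.18 (adjusted p = 0.00951) for Ncoa4 siRNA and 0.91 ± 0.18 (adjusted p = 0.0055) for the siRNA under DFO. Gnptab, which makes the tag, changed by -0.93 ± 0.13 (adjusted p = 6.41e-05) with DFO and by 0.70 ± 0.13 (adjusted p = 0.00391) with the siRNA under DFO. Gnptg, the other subunit gene of that enzyme, rose by 0.91 ± 0.12 (adjusted p = 4.1e-05) with DFO, and the receptor gene M6pr gave 0.03 ± 0.10 (adjusted p = 0.812). In the interaction, 1 of the 27 genes of the hydrolase list was called, Ppt1, by 0.45 (adjusted p = 0.0455). Of the 22 membrane and sorting genes 1 was called, Gpnmb, by 0.84 (adjusted p = 0.0429). Of all genes, 0.671% were called higher there and 1.43% lower. Both calls lay near the threshold, and neither was examined under the alternative settings.

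Of 10 genes of V-ATPase assembly and interaction, 2 rose and 3 fell with DFO and control siRNA, beside the same 27.7% and 25.7%. Tmem199 rose by 0.75, and the RAVE subunit gene Rogdi and the assembly factor gene Vma21 changed by -0.85 and -0.38. Of 14 genes of mTORC1 and MiT/TFE control tested, of 16 listed, 5 rose and 4 fell, beside 27.7% and 25.7%. Fnip1, a partner of folliculin in the control of TFEB and TFE3, went from 41.3, 37.6 and 41.6 to 118, 112 and 109.9 FPKM with DFO, by 1.49 ± 0.09 (adjusted p = 4.83e-08), and was at 92.8, 84.6 and 94.7 in siNCOA4+DFO. Fnip2 rose by 0.81, and the Ragulator gene Lamtor4 fell by 0.92, with siControl values of 8.48, 23.7 and 18.4 that overlapped those with DFO.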

How the data were processed

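HT22 cells were profiled by RNA-seq in 4 groups of 3 biological replicates, as 75-bp pairs from a stranded total RNA kit. Per the submitters' processing notes, the tools were Trimmomatic 0.33, FastQC, HISAT2 2.1.0, featureCounts and edgeR, with build mm10. The authors deposited FPKM per gene, 1 table per library of 24347 entries. The program that made the FPKM, the annotation and the strand setting are not given in the sources used here. The 4 entries that shared a name were left out, and no further scaling was applied. FPKM are not counts, so no count test was used.

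With limma 3.58.1 (R 4.3.3), a model of the 4 group means over all 12 libraries was fitted to log2(FPKM + 0.1) for genes with at least 0.5 FPKM in 3 libraries, with a mean-variance trend, 8 residual and 4.07 prior degrees of freedom. The pseudocount understates changes of low genes. The interaction was the DFO response with Ncoa4 siRNA minus that with control siRNA. The fit was tested on simulated data. With 3 libraries against 3, no two-sided exact permutation test can go below 0.1. Relative depth was the commonest ratio between libraries among genes between 0.01 and 0.5 FPKM. Positions are from GENCODE M21 (GRCm38), promoter windows from RefSeq (GRCm38.p6). Summaries used Python 3.11.15, numpy 2.4.6 and pandas 2.3.3, and figures matplotlib 3.10.9.

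Members and lists were chosen with earlier results of these data known. Named were the markers Atp6v1a, Lamp1 and Ctsd, the MiT/TFE factors and Mcoln1, in each role up to 3 genes with the largest called changes relative to siControl, every member called for the interaction or for Ncoa4 siRNA under DFO, and up to 3 called genes per further list. Other members are given by counts and levels, and those named beyond the rule were chosen after their values were seen. The alternatives were 2 pseudocounts, 2 filters, 4 scalings, the replicate number as a block, 2 forms of moderation, the compared groups alone and the omission of each library.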

Additional observations from a re-analysis of the deposited data

Results flagged for a closer look

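The response to DFO differed between siNCOA4 and siControl cells for 3 of the 44 members by the test of the interaction (limma, with Benjamini-Hochberg adjusted p-values), beside 0.671% of all genes called higher and 1.43% lower. The difference on the log2 scale was 0.72 for Mcoln1, 0.59 for Hexa and 0.57 for Lipa. Mcoln1 rose from 9.96, 9.33 and 11 to 20.3, 23.2 and 18.4 FPKM with Ncoa4 siRNA and from 10.4, 11.1 and 11.1 to 11.96, 13.7 and 14.7 with control siRNA. Hexa rose from 23.1, 23.3 and 22.3 to 44.01, 47.2 and 39.6 FPKM with Ncoa4 siRNA and from 26.8, 27.1 and 27.96 to 29.6, 37.5 and 36.7 with control siRNA. Lipa fell from 17.3, 16.2 and 15.2 to 12.3, 12.9 and 11.6 FPKM and from 18.9, 17.4 and 18.4 to 9.28, 9.09 and 9.44. Over the alternatives that kept all libraries, the adjusted p ranged from 0.0344 to 0.0887 for Mcoln1, from 0.028 to 0.121 for Hexa and from 0.0305 to 0.0806 for Lipa. Leaving out 1 library at a time ended the call in 10 of 12 cases for Mcoln1, 11 for Hexa and 10 for Lipa.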

How the results depend on the processing

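The counts of called members were recomputed under 12 alternatives with all libraries and with each library left out in turn. For siControl+DFO and siNCOA4+DFO relative to siControl, and for siNCOA4+DFO relative to siNCOA4, the total of called genes in each set stayed within 1.5 times that reported, and the leave-one-out counts were 11 to 12, 11 to 15 and 9 to 11 V-ATPase genes and 11 to 15, 19 to 22 and 20 to 22 lysosomal genes, in the order siControl+DFO (12 and 12 reported), siNCOA4+DFO relative to siControl (15 and 21) and siNCOA4+DFO relative to siNCOA4 (10 and 21). The split into higher and lower moved more: with either division by the FPKM sum the lysosomal genes went from 9 and 3 to 7 and 7, from 18 and 3 to 13 and 5, and from 19 and 2 to 9 and 5, and the V-ATPase genes from 12 and 0 to 10 and 1, from 14 and 1 to 10 and 1, and from 10 and 0 to 7 and 2. Over all 11924 genes, division by the FPKM sum gave splits of 2498 and 4130, 2143 and 4049, and 1574 and 4736 in the same order. With quantile scaling, lysosomal splits were 7 and 5, 18 and 4, and 19 and 3. For siNCOA4 relative to siControl, the 2 V-ATPase calls became 4 with quantile scaling and 5 with either division by the FPKM sum, and the 1 lysosomal call became 0 without a filter on low values, with the replicate block and without a trend, and 0 to 1 with a library left out (2 to 3 for the V-ATPase). For siNCOA4+DFO relative to siControl+DFO, the 4 V-ATPase calls became 8 with quantile scaling and 3 to 4 with a library left out, and the 10 lysosomal calls became 6 with either division by the FPKM sum and without a trend, 5 with the compared groups alone, and 6 to 10 with a library left out. For the interaction, the 0 V-ATPase calls became 1 with either division by the FPKM sum, and the 3 lysosomal calls became 1 without a filter, 0 with either division, 0 with the replicate block, 1 without a trend and 0 to 5 with a library left out. The causes were not tested. Atp6v1b2 in siNCOA4+DFO relative to siNCOA4 changed sign, to -0.0080 and -0.0038, when values were divided by the sum over all or over tested genes. Over the values of single members, 120 calls were lost and 27 gained with a library left out (3021 stayed on their side of the threshold), and 120 were lost and 53 gained under the other settings (2943 stayed). With the samples paired by number in the replicate block, the counts changed by more than 1.5 times only where given above. Same-numbered libraries of different groups did not deviate together (r from -0.127 to 0.116, median -0.0122, 18 pairs). The median of the 36 pairs with different numbers was 0.00973. No shared effect of the replicate number was seen, but whether same-numbered samples were prepared together cannot be told from this. Precision was limited by 3 libraries per group, and the FPKM carry no read totals.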
